A study of Mus musculus with 6 samples.

Results

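Neurons release transmitter from synaptic vesicles, and the genes described here encode the proteins that fill these vesicles, bring them to the active zone, fuse them with the membrane and take them back. The vesicle SNARE synaptobrevin pairs with syntaxin and SNAP-25 on the plasma membrane to drive fusion, synaptotagmins sense the calcium that triggers it, and RIM, Munc13, Bassoon and Piccolo hold and prime vesicles at the release site. After fusion, the vesicle membrane is recovered by endocytosis, in which adaptors such as EPS15, the scission enzyme dynamin and the phosphatase synaptojanin take part. In the hippocampus most of this machinery serves glutamatergic terminals, which load their vesicles through VGLUT1. The members were 48 genes listed by symbol for these roles, out of 25239 gene symbols in the counts, and all 48 were found and passed the filter on low counts that left 14445 genes.

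RNA was sequenced from the hippocampus of male C57BL/6 mice, 6 to 8 weeks old, 3 of the WT genotype (Ube3a m+/p+) and 3 of the Ube3a m-/p+ genotype, with 1 library per mouse. Ube3a m-/p+ mice lack a working maternal allele of *Ube3a*, a ubiquitin ligase gene that most neurons express only from the maternal copy, and keep the paternal allele; they model Angelman syndrome. The mutation is inherited and so present in every cell type. Its effect on expression depends on the cell type, as the paper describes use of both alleles in most tissues outside the nervous system. P-values measure the spread between these mice. The tissue is whole hippocampus, so fewer cells of a type and less RNA per cell cannot be told apart. Values by mouse are counts scaled to the total of the library on genes (CPM), always given in the order of mice 1, 2 and 3.

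Counts on genes numbered 7293272 to 8675252 in WT mice and 8871052 to 11314409 in Ube3a m-/p+ mice. The targeted gene, *Ube3a*, had 104, 141 and 151 CPM in WT mice and 96.8, 82.9 and 80.6 CPM in Ube3a m-/p+ mice, with no overlap and a log2 fold change of -0.58, or -0.16 after the correction for GC content and length described for the members. The 6 neuronal markers examined (*Rbfox3*, *Map2*, *Tubb3*, *Eno2*, *Nefl* and *Nefm*) summed to 2875 to 2926 CPM in WT mice and 2839 to 2917 CPM in Ube3a m-/p+ mice, and none was at 0. Beneath these sums 5 of the 6 had a positive log2 fold change (median 0.22), and *Map2*, the most abundant in WT mice, had -0.35. Choroid plexus markers ran from 99.8 to 2179.8 CPM among WT mice and from 105.5 to 2270.3 CPM among Ube3a m-/p+ mice, and their part in the results was not tested. Summed markers did not overlap between genotypes for striatum (64.7 to 82.7 CPM in WT and 89.3 to 106.1 CPM in Ube3a m-/p+ mice), oligodendrocyte precursors (128.0 to 133.4 and 92.8 to 109.5 CPM) and GABA neurons (616 to 631 and 554 to 579 CPM), nor for oligodendrocytes, microglia and neocortex, whose sums were lower in Ube3a m-/p+ mice; their part was not tested either. The sums weight abundant markers most: single log2 fold changes were positive in 3 of 5 GABA neuron, 3 of 6 oligodendrocyte, 2 of 5 microglia and 2 of 5 tested neocortex markers, in 6 of 6 for striatum and in 0 of 3 for precursors. The libraries of the mice numbered 1 were closer to each other than to the other mice of their genotype. Over the genes tested, the chi-square per degree of freedom between them was 3.91, the lowest of the 15 pairs of libraries, although they are of different genotypes. In WT mice it was 6.12 and 8.92 between mouse 1 and mice 2 and 3, and 4.08 between mice 2 and 3. In Ube3a m-/p+ mice it was 5.72 and 10.6 between mouse 1 and mice 2 and 3, and 6.11 between mice 2 and 3. This chi-square weights abundant genes most, so the spread in choroid plexus markers enters it, and the ranking without them was not tested. Across genes, a library's deviation in log2 CPM tracked transcript GC content with a Spearman's rho of 0.041, -0.520 and -0.583 for WT mice, and of 0.056, 0.536 and 0.547 for Ube3a m-/p+ mice. Mice 2 and 3 thus had opposite signs by genotype, and mice 1 lay near 0. *Ube3a* itself was closer between the mice numbered 1 than between any other WT and Ube3a m-/p+ mouse. Whether these 2 libraries carry the right genotype, or share a step of preparation, was not tested, and every genotype value here includes them unless a mouse is said to be left out.

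As a whole, the release machinery was divided between higher and lower values in Ube3a m-/p+ mice. Differential expression was called by edgeR's quasi-likelihood test at a Benjamini-Hochberg adjusted p below 0.05, over all genes tested, and a fold change above 1.2. By this rule 2 of the 48 members were called, *Stx1a* up-regulated and *Eps15* down-regulated, which is 4.17% of the members against 2.01% of all genes tested. In the up direction the background was 1.02% and in the down direction 0.990%. At an unadjusted p below 0.05 there were 19 members (39.6%, against 24.6% of all genes), 12 with higher (25.0%, against 12.2%) and 7 with lower values (14.6%, against 12.4%). There was no overlap between the genotypes in 17 members (35.4%, against 25.0% of all genes), in 8 of them with every Ube3a m-/p+ mouse higher (against 10.8%) and in 9 with every one lower (against 14.2%). The median log2 fold change of the members was 0.02, beside 0.00 over all genes tested, with a range from -0.40 to 0.52. Together the members held 2.21% to 2.26% of the counts in WT mice and 2.24% to 2.36% in Ube3a m-/p+ mice.

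**Figure D1:**
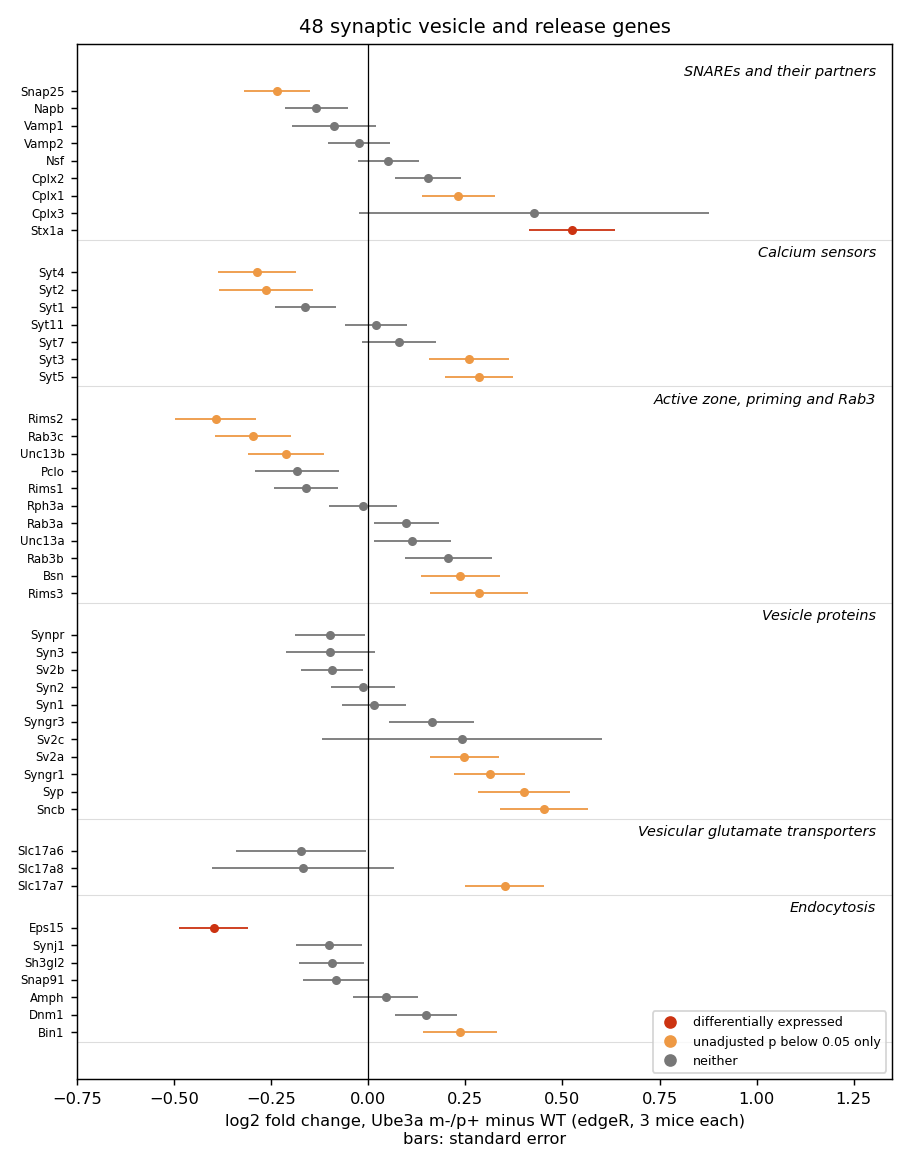
Log2 fold change of each member between 3 Ube3a m-/p+ and 3 WT mice (edgeR, x axis, bars are standard errors), grouped by role. *Stx1a* (0.52) and *Eps15* (-0.40) were differentially expressed, and 17 further members had only an unadjusted p below 0.05.

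The call on these 2 genes depended on the libraries. With WT mouse 2, WT mouse 3, Ube3a m-/p+ mouse 2 or Ube3a m-/p+ mouse 3 left out, no member was called. Over all genes tested, the calls in these fits numbered 0, 0, 0 and 2. An unadjusted p below 0.05 (edgeR) was found for 9, 13, 11 and 16 members, where 14.2%, 14.8%, 14.6% and 16.7% of all genes had one. Without WT mouse 1, 14 members were called (17.6% of all genes were), and without Ube3a m-/p+ mouse 1, 13 members (12.5% of all genes). With DESeq2 in place of edgeR, 9 members were called (6.69% of all genes were), namely *Eps15*, *Rab3c*, *Rims2*, *Slc17a7*, *Sncb*, *Stx1a*, *Syngr1*, *Syp* and *Syt5*. With each library corrected for the GC content and length of transcripts, 1 member was called, *Rims2* (0.699% of all genes were).

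Among the 9 SNAREs and their partners, *Stx1a* was up-regulated and no other gene was called. *Stx1a* encodes syntaxin-1A (chromosome 5, 135023482 to 135051100 in GRCm38) and had 76.1, 62.5 and 56.5 CPM in WT mice and 85.4, 97.3 and 94.5 CPM in Ube3a m-/p+ mice. Every Ube3a m-/p+ mouse lay above every WT mouse, and mouse 1 was the highest of the WT mice and the lowest of the Ube3a m-/p+ mice. Its log2 fold change was 0.52 ± 0.11 (standard error; edgeR adjusted p = 0.0362), on 4453 counts in the 6 libraries. Across the alternative fits that used all 6 mice the adjusted p of *Stx1a* ran from 0.00142 to 0.216, and with 1 mouse left out from 0.00127 to 0.251 (edgeR or DESeq2). *Snap25*, which encodes SNAP-25, the other plasma membrane SNARE, had 1713, 1944 and 2016 CPM in WT mice and 1596, 1546 and 1618 CPM in Ube3a m-/p+ mice. Here every Ube3a m-/p+ mouse was below every WT mouse, and the log2 fold change was -0.23 (edgeR adjusted p = 0.109), or -0.08 after the correction for GC content and length.

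The vesicle SNAREs showed no such separation. *Vamp2*, the main synaptobrevin gene of the forebrain, had 893, 974 and 964 CPM in WT mice and 930.1, 907 and 915 CPM in Ube3a m-/p+ mice, and the genotypes overlapped (log2 fold change -0.02). *Vamp1*, its relative in fast-firing neurons, had 114 ± 9.36 CPM in WT mice and 106 ± 14.9 CPM in Ube3a m-/p+ mice (SD, n = 3 each). Of the genes that take SNARE complexes apart, *Nsf*, the ATPase, had 1208 ± 30.9 CPM in WT mice and 1236 ± 39.5 CPM in Ube3a m-/p+ mice (SD, n = 3 each) and a log2 fold change of 0.05. *Napb*, the neuronal SNAP adaptor of NSF, had 443, 468 and 481 CPM in WT mice and 440.4, 401 and 412 CPM in Ube3a m-/p+ mice, which do not overlap, with a log2 fold change of -0.13 (edgeR adjusted p = 0.315). The complexins clamp and promote fusion. *Cplx1* had 437, 382 and 347 CPM in WT mice and 431, 457 and 465 CPM in Ube3a m-/p+ mice and *Cplx2* had 1761, 1602 and 1585 CPM in WT mice and 1686, 1884 and 1869 CPM in Ube3a m-/p+ mice. In both genes WT mouse 1 lay within the range of the other genotype. The log2 fold changes were 0.23 (edgeR adjusted p = 0.144) for *Cplx1* and 0.15 (edgeR adjusted p = 0.274) for *Cplx2*. *Cplx3*, a complexin of retina and some cortical neurons, was the lowest member, with 115 counts in the 6 libraries and values from 0.760 to 3.27 CPM that gave no order of the genotypes.

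The synaptotagmins had log2 fold changes of both signs, most of them near 0 after the correction for GC content and length: -0.04 for *Syt1*, -0.03 for *Syt4*, 0.03 for *Syt3* and 0.11 for *Syt5*, with -0.27 for *Syt2*. *Syt1*, the calcium sensor of fast release in the forebrain, had 1405, 1439 and 1439.5 CPM in WT mice and 1328, 1211 and 1242 CPM in Ube3a m-/p+ mice, which do not overlap, with a log2 fold change of -0.16 (edgeR adjusted p = 0.217). *Syt2*, its counterpart in inhibitory and hindbrain synapses, had 36.04, 34.9 and 29.1 CPM in WT mice and 25.4, 27.4 and 29.6 CPM in Ube3a m-/p+ mice, of which the last lay in the WT range (log2 fold change -0.26, edgeR adjusted p = 0.189). *Syt4*, a synaptotagmin of dense-core vesicles, had 127, 153 and 163 CPM in WT mice and 131, 116 and 112 CPM in Ube3a m-/p+ mice. Only WT mouse 1 and Ube3a m-/p+ mouse 1 overlapped in *Syt4*, and its log2 fold change was -0.29 (edgeR adjusted p = 0.103).

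*Syt5* and *Syt3* had higher values. *Syt5* had 104, 98.8 and 94.1 CPM in WT mice and 116, 116 and 126 CPM in Ube3a m-/p+ mice, with every Ube3a m-/p+ mouse above every WT mouse and a log2 fold change of 0.29 (edgeR adjusted p = 0.073). *Syt3*, whose product binds calcium with high affinity, had 73.7, 68.5 and 64.4 CPM in WT mice and 75.6, 76.5 and 92.3 CPM in Ube3a m-/p+ mice, again without overlap (log2 fold change 0.26, edgeR adjusted p = 0.14). *Syt7*, a sensor of slow and facilitating release, had 573 ± 70.9 CPM in WT mice and 598 ± 12.6 CPM in Ube3a m-/p+ mice (SD, n = 3 each). *Syt11*, a synaptotagmin that does not bind calcium, had 914 ± 45.8 CPM in WT mice and 915 ± 20.7 CPM in Ube3a m-/p+ mice (SD, n = 3 each). Both overlapped between genotypes, and their log2 fold changes were 0.08 and 0.02. None of the 7 synaptotagmins was differentially expressed by edgeR, and DESeq2 called 1, *Syt5*. An unadjusted p below 0.05 (edgeR) was found for 4 of the 7, where 24.6% of all genes had one.

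At the active zone, the lowest values relative to WT were those of *Rims2*. This gene encodes RIM2, which ties vesicles and calcium channels to the release site (chromosome 15, 39198261 to 39684372 in GRCm38), and it had 76.9, 89.3 and 95.98 CPM in WT mice and 73.4, 62.7 and 61.2 CPM in Ube3a m-/p+ mice. No Ube3a m-/p+ mouse reached a WT value, and mice 1 were the closest to each other, at 76.9 and 73.4 CPM. The log2 fold change of *Rims2* was -0.39 ± 0.10 (standard error; edgeR adjusted p = 0.0541), just above the threshold. After the correction for GC content and length *Rims2* was down-regulated, with a log2 fold change of -0.35 (edgeR adjusted p = 0.0472). With the replicate number as a block it was not called, with the correction (edgeR adjusted p = 0.118) or without it (edgeR adjusted p = 0.223). With 1 mouse left out and no correction, its adjusted p lay between 0.00517 and 0.276 (edgeR). *Rims1*, the other long RIM, had 206, 212 and 208 CPM in WT mice and 198, 186 and 169 CPM in Ube3a m-/p+ mice, also without overlap (log2 fold change -0.16, edgeR adjusted p = 0.242). *Rims3*, which encodes a short RIM, had 44.1, 50.03 and 55.5 CPM in WT mice and 63.1, 68.9 and 47.9 CPM in Ube3a m-/p+ mice, of which the last lay in the WT range (log2 fold change 0.29, edgeR adjusted p = 0.18).

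The large scaffolds of the active zone had opposite signs. *Bsn*, which encodes Bassoon, had 660.0, 567 and 501 CPM in WT mice and 629, 718 and 666 CPM in Ube3a m-/p+ mice, with a log2 fold change of 0.24 (edgeR adjusted p = 0.166). *Pclo*, which encodes Piccolo, had 241, 282 and 279 CPM in WT mice and 277, 218 and 202 CPM in Ube3a m-/p+ mice, with a log2 fold change of -0.18 (edgeR adjusted p = 0.301). In both genes the mice numbered 1 lay within the range of the other genotype, and the corrected log2 fold changes were 0.03 and -0.06. Of the Munc13 priming factors, *Unc13a* had 675, 597 and 527 CPM in WT mice and 594, 657 and 671 CPM in Ube3a m-/p+ mice and *Unc13b* had 77.03, 76.7 and 73.1 CPM in WT mice and 71.02, 65.7 and 56.9 CPM in Ube3a m-/p+ mice. *Unc13b* did not overlap and *Unc13a* did, with log2 fold changes of -0.21 (edgeR adjusted p = 0.191) and 0.11 (edgeR adjusted p = 0.503).

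The Rab3 GTPases sit on vesicles and bind RIM, and none was called by edgeR. *Rab3c* had 312, 368 and 352 CPM in WT mice and 307, 286 and 238 CPM in Ube3a m-/p+ mice, without overlap and with a log2 fold change of -0.30 (edgeR adjusted p = 0.0877), or -0.05 after the correction. *Rab3a*, the main neuronal form, had 435, 412 and 424 CPM in WT mice and 424, 436 and 482 CPM in Ube3a m-/p+ mice, where only Ube3a m-/p+ mice 2 and 3 exceeded all WT mice (log2 fold change 0.10, edgeR adjusted p = 0.496). *Rab3b* had 31.2 ± 2.9 CPM in WT mice and 35.4 ± 2.54 CPM in Ube3a m-/p+ mice (SD, n = 3 each), and the Rab3 effector rabphilin, *Rph3a*, had 458 ± 19.6 CPM in WT mice and 448 ± 36.3 CPM in Ube3a m-/p+ mice (SD, n = 3 each). Their log2 fold changes were 0.21 and -0.01. None of the 11 genes of this role was differentially expressed by edgeR, and DESeq2 called *Rims2* and *Rab3c*. An unadjusted p below 0.05 (edgeR) was found for 5 of the 11, where 24.6% of all genes had one.

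**Figure D2:**
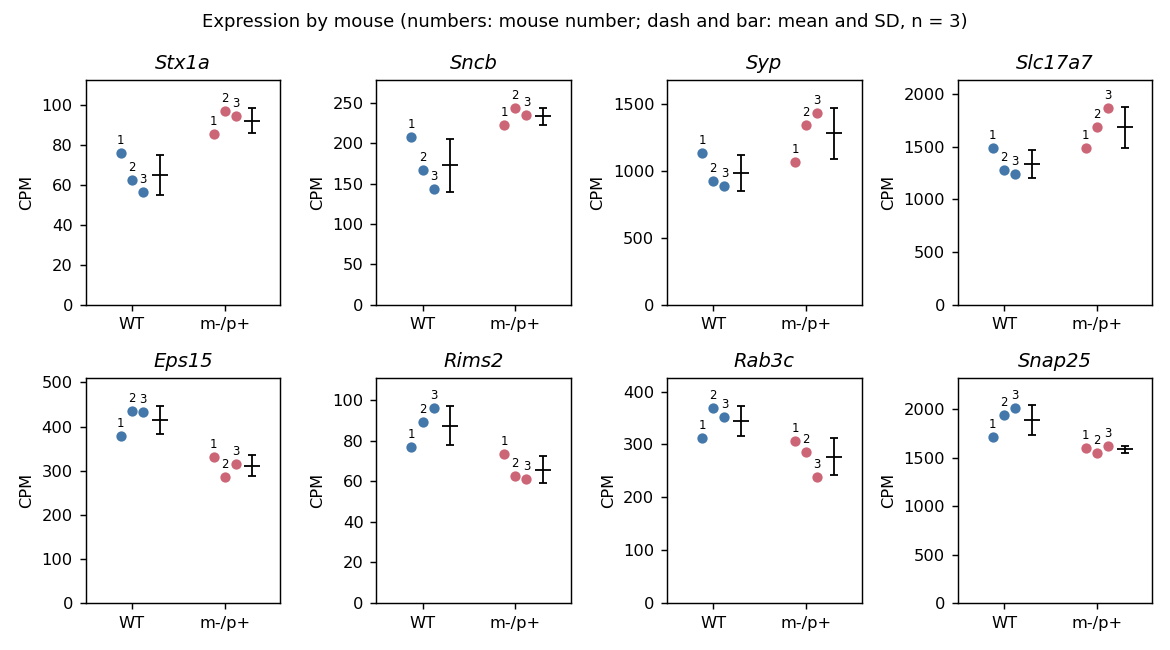
CPM of 8 members in each mouse (points, numbered by mouse), with the mean and SD of each genotype (n = 3); axes start at 0. In *Stx1a*, *Sncb* and *Slc17a7* all Ube3a m-/p+ mice lie above all WT mice, in *Eps15*, *Rims2*, *Rab3c* and *Snap25* all lie below, and in *Syp* mouse 1 overlaps.

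The vesicle proteins had the highest median log2 fold change of the 6 roles, 0.16, with 7 of 11 positive. They also had the highest median GC content of the roles, 54.2%. After the correction for GC content and length their median log2 fold change was 0.13, still the highest of the 6. None of the 11 was called by edgeR, and DESeq2 called *Sncb*, *Syp* and *Syngr1*. An unadjusted p below 0.05 (edgeR) was found for 4 of the 11, where 24.6% of all genes had one. *Sncb*, which encodes beta-synuclein, a presynaptic protein related to alpha-synuclein, had 208, 167 and 143 CPM in WT mice and 223, 243 and 235 CPM in Ube3a m-/p+ mice. All Ube3a m-/p+ mice exceeded all WT mice, and the log2 fold change was 0.45 ± 0.11 (standard error; edgeR adjusted p = 0.0513). *Sncb* was called with DESeq2 (adjusted p = 0.00990) and had an adjusted p of 0.458 after the correction for GC content and length (edgeR). *Syp*, which encodes synaptophysin, an abundant vesicle protein that binds synaptobrevin, had 1135, 925 and 889 CPM in WT mice and 1068, 1344 and 1431 CPM in Ube3a m-/p+ mice. The overlap came from the mice numbered 1, and the log2 fold change was 0.40 ± 0.12 (standard error; edgeR adjusted p = 0.069). *Syngr1*, a synaptogyrin of the same family, had 401, 344 and 342 CPM in WT mice and 409, 466 and 459 CPM in Ube3a m-/p+ mice, without overlap (log2 fold change 0.31, edgeR adjusted p = 0.0672).

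*Sv2a*, a transporter-like vesicle glycoprotein and the target of the antiepileptic drug levetiracetam, had 375, 378 and 353 CPM in WT mice and 386, 456 and 453 CPM in Ube3a m-/p+ mice, without overlap (log2 fold change 0.25, edgeR adjusted p = 0.109). Its paralog *Sv2b* lay on the other side, with 449, 474 and 492 CPM in WT mice and 446, 425 and 438 CPM in Ube3a m-/p+ mice, also without overlap (log2 fold change -0.09, edgeR adjusted p = 0.491). *Sv2c*, prominent in the basal ganglia, had 12.6, 10.03 and 10.4 CPM in WT mice and 15.8, 17.1 and 5.8 CPM in Ube3a m-/p+ mice, and the range within Ube3a m-/p+ mice contained all WT values. The synapsins, which tether vesicles to each other, overlapped between genotypes, with log2 fold changes of 0.01 for *Syn1*, -0.01 for *Syn2* and -0.10 for *Syn3*. They had 615 ± 6.98 CPM in WT mice and 614 ± 42.8 CPM in Ube3a m-/p+ mice (SD, n = 3 each) for *Syn1*, and 754 ± 44.6 CPM in WT mice and 737 ± 19.3 CPM in Ube3a m-/p+ mice (SD, n = 3 each) for *Syn2*. *Syn3* had 61.4 ± 6.69 CPM in WT mice and 56.8 ± 7.79 CPM in Ube3a m-/p+ mice (SD, n = 3 each); its annotated exons overlap *Timp3*, on the opposite strand, over 1733 of 12282 bp, and without a known strand setting reads there could belong to either gene. The other members with 256 bp or more of such overlap were *Syp* (875 of 5211 bp), *Syt4* (566 of 3892 bp), *Unc13a* (495 of 12623 bp), *Syt7* (384 of 7487 bp), *Rab3b* (317 of 3524 bp), *Bin1* (256 of 4117 bp) and *Pclo* (429 and 496 of 22457 bp, with 2 genes). *Syngr3*, another synaptogyrin, had 108 ± 4.14 CPM in WT mice and 119.7 ± 19.4 CPM in Ube3a m-/p+ mice (SD, n = 3 each), and *Synpr*, a synaptophysin relative of mossy fibres, had 135 ± 9.87 CPM in WT mice and 125 ± 9 CPM in Ube3a m-/p+ mice (SD, n = 3 each). Their log2 fold changes were 0.16 and -0.10, and both signs turned after the correction for GC content and length, to -0.05 and 0.16.

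*Slc17a7*, the gene of the vesicular glutamate transporter VGLUT1, had 1490.0, 1280.1 and 1245 CPM in WT mice and 1492, 1689 and 1875 CPM in Ube3a m-/p+ mice. All Ube3a m-/p+ mice were above all WT mice, but the mice numbered 1 were nearly equal. The log2 fold change was 0.35 ± 0.10 (standard error; edgeR adjusted p = 0.0638). *Slc17a6*, the VGLUT2 gene of thalamic and subcortical terminals, had 17.6, 17.5 and 18.6 CPM in WT mice and 14.9, 20.1 and 11.98 CPM in Ube3a m-/p+ mice, and *Slc17a8*, the VGLUT3 gene, had 6.95, 5.88 and 10.1 CPM in WT mice and 6.99, 5.21 and 7.89 CPM in Ube3a m-/p+ mice. Both overlapped between the genotypes, on 922 and 388 counts. The 6 thalamus markers summed to 109.1 to 123.2 CPM in WT mice and 117.7 to 131.3 CPM in Ube3a m-/p+ mice, and none was at 0; their part in *Slc17a6* was not tested.

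Of the genes of endocytosis, *Eps15* was down-regulated. It encodes a clathrin adaptor that binds AP-2 (chromosome 4, 109280268 to 109387817 in GRCm38), and it had 378, 435 and 432 CPM in WT mice and 332, 286 and 316 CPM in Ube3a m-/p+ mice. Every Ube3a m-/p+ mouse was below every WT mouse, and mice 1 were the closest pair. The log2 fold change was -0.40 ± 0.09 (standard error; edgeR adjusted p = 0.0387), on 19639 counts. *Eps15* is the 1 member on the list of retinoic acid-targeted genes that the study assembled. After the correction for GC content and length its log2 fold change was -0.14 (edgeR adjusted p = 0.4), and with 1 mouse left out its adjusted p lay between 0.00288 and 0.272 (edgeR).

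*Bin1*, which encodes amphiphysin-2, had 351, 306 and 283 CPM in WT mice and 338, 377 and 379 CPM in Ube3a m-/p+ mice, with WT mouse 1 within the Ube3a m-/p+ range (log2 fold change 0.24, edgeR adjusted p = 0.141). *Dnm1*, the neuronal dynamin, had 1543, 1532 and 1478 CPM in WT mice and 1620.0, 1616 and 1746 CPM in Ube3a m-/p+ mice, without overlap, and a log2 fold change of 0.15 (edgeR adjusted p = 0.265). *Snap91*, the clathrin assembly protein AP180, had 448 ± 18.01 CPM in WT mice and 418 ± 25.6 CPM in Ube3a m-/p+ mice (SD, n = 3 each), and *Synj1*, synaptojanin, had 567 ± 19.7 CPM in WT mice and 522 ± 44.1 CPM in Ube3a m-/p+ mice (SD, n = 3 each). *Sh3gl2*, endophilin-A1, had 324 ± 24.9 CPM in WT mice and 299.8 ± 7.62 CPM in Ube3a m-/p+ mice (SD, n = 3 each), and *Amph*, amphiphysin, had 269 ± 5.07 CPM in WT mice and 274 ± 20.95 CPM in Ube3a m-/p+ mice (SD, n = 3 each). The last 4 genes had log2 fold changes between -0.10 and 0.04.

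The direction of a member followed the GC content of its transcript. Over the 48 members, Spearman's rho between the GC content of the longest coding transcript and the log2 fold change was 0.812, beside 0.639 over 14201 tested genes with a transcript. All points share the same 6 libraries, and genes are not independent replicates. Of the 26 members with a GC content of 50% or more, 21 had a positive and 5 a negative log2 fold change, with a median of 0.20, beside 0.14 for the 7318 tested genes of that range. Of the 22 members below 50%, 4 were positive and 18 negative, with a median of -0.15, as for the 6883 tested genes of that range. The limit of 50% was chosen after the values were seen. *Sncb* had the highest GC content (61.4%), and *Stx1a*, *Slc17a7* and *Bsn* had 58.5%, 58.5% and 59.8%, while *Eps15*, *Rab3c* and *Snap25* had 41.2%, 41.9% and 43.4%. *Rims2* (48.9%) lay near the middle.

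**Figure D3:**
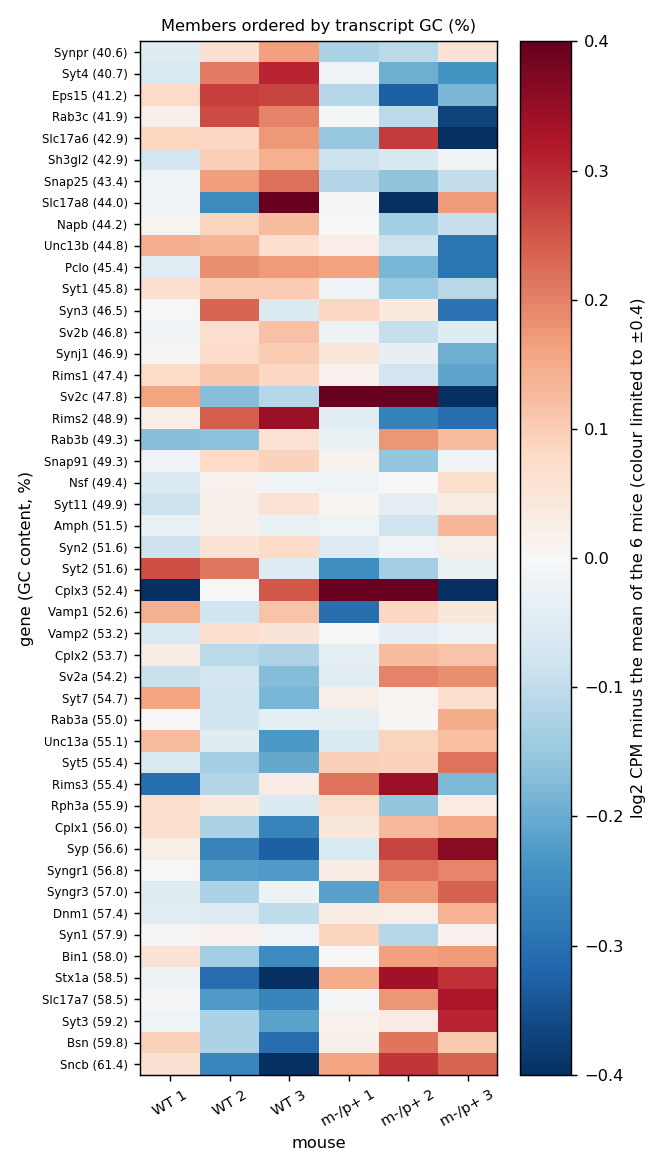
Log2 CPM of each member in each mouse as the deviation from its mean over the 6 mice (colour, limited to ±0.4), with members ordered by the GC content of the longest coding transcript. In mice 2 and 3 of each genotype the sign of the deviation turns along the order, and in the mice numbered 1 the deviations are small for most members.

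The same order appeared in each mouse apart from the mice numbered 1. For the 26 members of higher GC content, the median deviation of log2 CPM from the mean of the 6 mice was 0.0003, -0.09 and -0.15 in WT mice and 0.01, 0.11 and 0.14 in Ube3a m-/p+ mice. For the 22 members of lower GC content it was -0.01, 0.09 and 0.12 in WT mice and -0.01, -0.10 and -0.15 in Ube3a m-/p+ mice. Between the mice numbered 1, the log2 ratio of Ube3a m-/p+ to WT was 0.17 for *Stx1a*, -0.19 for *Eps15*, -0.07 for *Rims2*, 0.10 for *Sncb*, 0.16 for *Syt5* and -0.10 for *Snap25*. Between the mice numbered 3 it was 0.74, -0.45, -0.65, 0.71, 0.42 and -0.32 for the same genes, in the same directions. Other members differed in sign between the mice numbered 1 and those numbered 3. Among them were *Syp* (-0.09 and 0.69), *Bsn* (-0.07 and 0.41), *Bin1* (-0.06 and 0.42), *Cplx1* (-0.02 and 0.42), *Syt4* (0.04 and -0.54) and *Pclo* (0.20 and -0.46). The mice numbered 1 give no test, being 1 mouse a genotype.

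After each library was corrected for GC content and length, rho over the members was 0.249, and the median size of their log2 fold change was 0.07, beside 0.12 over all genes tested. The sign was kept in 36 of the 48, a share near that of all genes tested (10749 of 14445). It turned in *Napb*, *Syt7*, *Rab3a*, *Syn1*, *Synpr*, *Syngr3*, *Sv2b*, *Slc17a6*, *Slc17a8*, *Dnm1*, *Synj1* and *Sh3gl2*. At an unadjusted p below 0.05 there were 8 members (16.7%, against 13.8% of all genes), namely *Stx1a*, *Syt2*, *Rims2*, *Rab3b*, *Syn1*, *Syp*, *Synpr* and *Syngr1*. The genotypes did not overlap in 5 members, *Stx1a*, *Syngr1* and *Synj1* with higher and *Rims1* and *Rims2* with lower values in Ube3a m-/p+ mice (17.1% of all genes did not overlap). The corrected log2 fold change of *Stx1a* was 0.30 (edgeR adjusted p = 0.0733), and its corrected values were 76.2, 69.1 and 63.5 CPM in WT mice and 85.1, 87.4 and 85.5 CPM in Ube3a m-/p+ mice. A difference between genotypes that itself follows GC content cannot be told apart from one made in the preparation or sequencing of the libraries.

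**Figure D4:**
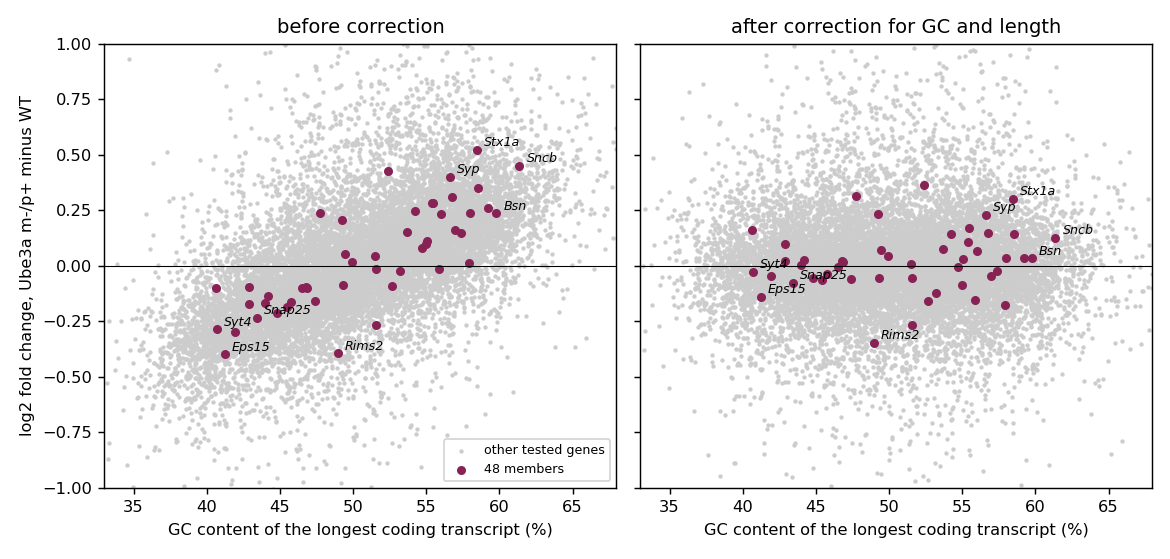
Log2 fold change (y axis, limited to ±1) against the GC content of the longest coding transcript (x axis, 33 to 68%) for the 48 members and the other tested genes, before and after the correction of each library. The members lie along a rising band before the correction (rho 0.812) and along a flatter one after it (rho 0.249), where *Rims2* (-0.35) is the lowest member.

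RefSeq promoters of GRCm38.p6, each from 250 bases before to 50 after a transcription start, were matched by symbol for 39 of the 48 members, with 52 entries in all. Their median GC content was 61.7%, beside 52.7% for all 32851 entries. Printed here are the entries of members without overlap of the genotypes, 2 with higher and 2 with lower values in Ube3a m-/p+ mice. They have the largest log2 fold changes in each direction among members with a single entry within 100 bp of the annotated gene start. They are shown so that the starts of genes on both sides can be compared: promoter GC content was 66.3% in *Stx1a*, 62% in *Sncb*, 62% in *Unc13b* and 61.3% in *Napb*, while that of the transcripts was 58.5%, 61.4%, 44.8% and 44.2%. Capitals mark GC boxes (GGGCGG on either strand), the only 1 of the 4 motifs searched that these sequences held.
Stx1a (chr5:135023232-135023531, plus strand): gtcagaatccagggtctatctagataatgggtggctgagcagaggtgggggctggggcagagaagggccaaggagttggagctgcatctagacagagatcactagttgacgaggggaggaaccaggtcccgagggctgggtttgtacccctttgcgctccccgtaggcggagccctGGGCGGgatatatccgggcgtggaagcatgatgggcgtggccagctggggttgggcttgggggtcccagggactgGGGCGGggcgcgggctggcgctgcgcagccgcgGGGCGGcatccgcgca
Sncb (chr13:54766546-54766845, minus strand): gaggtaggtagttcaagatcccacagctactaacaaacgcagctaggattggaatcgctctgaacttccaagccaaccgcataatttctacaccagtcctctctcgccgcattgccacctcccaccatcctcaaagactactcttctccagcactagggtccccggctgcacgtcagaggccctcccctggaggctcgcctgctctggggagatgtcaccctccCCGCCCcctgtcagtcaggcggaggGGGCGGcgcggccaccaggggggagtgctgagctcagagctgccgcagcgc
Unc13b (chr4:43058703-43059002, plus strand): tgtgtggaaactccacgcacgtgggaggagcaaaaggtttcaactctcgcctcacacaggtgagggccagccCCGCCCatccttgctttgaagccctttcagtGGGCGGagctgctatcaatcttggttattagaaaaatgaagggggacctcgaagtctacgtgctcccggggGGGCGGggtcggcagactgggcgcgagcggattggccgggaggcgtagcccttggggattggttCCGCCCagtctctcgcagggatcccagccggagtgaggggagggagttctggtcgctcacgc
Napb (chr2:148732371-148732670, minus strand): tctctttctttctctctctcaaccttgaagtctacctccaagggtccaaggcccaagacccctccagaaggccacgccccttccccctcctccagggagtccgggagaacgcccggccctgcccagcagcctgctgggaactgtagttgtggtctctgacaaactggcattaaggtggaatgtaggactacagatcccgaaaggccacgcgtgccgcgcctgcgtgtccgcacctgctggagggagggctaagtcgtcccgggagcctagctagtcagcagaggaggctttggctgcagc

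GC boxes numbered 3 in *Stx1a*, 2 in *Sncb*, 4 in *Unc13b* and 0 in *Napb*, so both directions held them. Over all entries of the members 57.7% held a GC box, against 35.7% of all promoters. The core motif of retinoic acid receptors (AGGTCA, either strand) was in the entries of 4 members, *Syt2*, *Cplx3*, *Syt1* and *Syngr1*, or 7.69% of entries against 16.3% of all promoters. A part of the motif of the repressor REST (GGACAGC, either strand) was in entries of *Rph3a* and *Unc13a* (5.77% of entries against 6.56%), and the cAMP response element (TGACGTCA) in those of *Syn1* and *Sh3gl2* (3.85% against 1.79%). A match describes letters only.

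Levels of different members were compared per kilobase of the longest coding transcript. *Snap25* was highest, with 894 in WT mice and 749.9 in Ube3a m-/p+ mice (CPM per kb), followed in WT mice by *Slc17a7* (459 in WT mice and 578 in Ube3a m-/p+ mice) and *Vamp2* (428 in WT mice and 416 in Ube3a m-/p+ mice). *Slc17a7* ranged from 427 to 643 over the 6 mice and *Vamp2* from 405 to 442, so these neighbours overlapped. *Syp* had 379 in WT mice and 494 in Ube3a m-/p+ mice and *Cplx2* 335 in WT mice and 368 in Ube3a m-/p+ mice. The syntaxin gene *Stx1a* was below *Snap25* and *Vamp2*, its SNARE partners, in every mouse, with 30.1 in WT mice and 42.7 in Ube3a m-/p+ mice. Among the calcium sensors *Syt1* (296 in WT mice and 261 in Ube3a m-/p+ mice) exceeded *Syt11* (182 in WT mice and 182 in Ube3a m-/p+ mice) and *Syt7* (86.5 in WT mice and 90.3 in Ube3a m-/p+ mice) in every mouse, and *Syt2* had 4.85 in WT mice and 3.99 in Ube3a m-/p+ mice. The lowest members per length were *Sv2c* (1.21 in WT mice and 1.42 in Ube3a m-/p+ mice) and *Cplx3* (0.622 in WT mice and 0.825 in Ube3a m-/p+ mice).

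The balance of related genes was taken as the log2 ratio of their CPM within a mouse, which does not depend on the scaling of the library. All 10 pairs examined had a higher mean ratio in Ube3a m-/p+ mice, and in all 10 the gene placed first, by choice, was the one with the higher GC content. *Sv2a* to *Sv2b* was -0.26, -0.33 and -0.48 in WT mice and -0.21, 0.10 and 0.05 in Ube3a m-/p+ mice, without overlap (difference 0.34). *Rims3* to *Rims1* was -2.23, -2.08 and -1.90 in WT mice and -1.65, -1.43 and -1.82 in Ube3a m-/p+ mice, also without overlap (difference 0.44). Each gave p = 0.1 in the exact permutation test, two-sided, the smallest p that 3 mice against 3 allow, and 0.25 after Benjamini-Hochberg adjustment over the 10 pairs. The other 8 pairs overlapped.

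*Bsn* to *Pclo* was 1.45, 1.01 and 0.84 in WT mice and 1.18, 1.72 and 1.72 in Ube3a m-/p+ mice, where each mouse numbered 1 lay in the range of the other genotype. *Slc17a7* to *Slc17a6* had the widest difference (0.56), with the highest ratio in Ube3a m-/p+ mouse 3, as the ratio was 6.41, 6.19 and 6.06 in WT mice and 6.65, 6.40 and 7.29 in Ube3a m-/p+ mice. *Rab3a* to *Rab3c* (0.40), *Unc13a* to *Unc13b* (0.33) and *Syt7* to *Syt1* (0.25) each overlapped, with p = 0.2 in the exact permutation test, as *Bsn* to *Pclo*, *Slc17a7* to *Slc17a6* and *Cplx1* to *Cplx2* also had. *Syn1* to *Syn2* (0.03), *Cplx1* to *Cplx2* (0.08) and *Vamp2* to *Vamp1* (0.08) differed least. After the correction for GC content and length the difference was smaller in 9 of the 10 pairs, and larger, with the sign turned, in *Syn1* to *Syn2* (-0.13). It was 0.12 for *Sv2a* to *Sv2b*, 0.22 for *Rims3* to *Rims1*, 0.16 for *Slc17a7* to *Slc17a6* and 0.10 for *Bsn* to *Pclo*. In the exact permutation test the corrected ratios gave p = 0.1 for *Sv2a* to *Sv2b* and p = 0.3 for *Rims3* to *Rims1*.

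**Figure D5:**
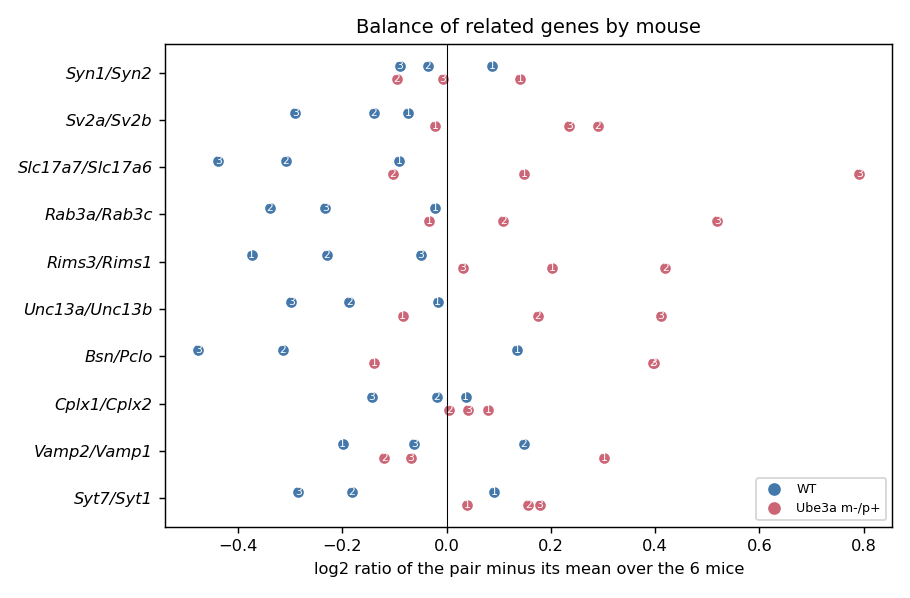
Log2 ratio of CPM of 10 pairs of related genes in each mouse, minus the mean of the pair over the 6 mice (x axis; points are numbered by mouse). *Sv2a* to *Sv2b* and *Rims3* to *Rims1* separate the genotypes, and in the other pairs they overlap.

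Further genes of the pathway were taken from a list of 76, with none of the members in it, of which 73 were tested. Differential expression was found in 2 of them (2.74%, near the 2.01% of all genes). *Ap2s1*, which encodes the small subunit of the AP-2 clathrin adaptor, had 78.9, 81.6 and 80.3 CPM in WT mice and 99.3, 106 and 108 CPM in Ube3a m-/p+ mice and a log2 fold change of 0.40 (edgeR adjusted p = 0.0364). *Stxbp5l*, which encodes tomosyn-2, a relative of the SNARE inhibitor tomosyn, had 167, 181 and 201 CPM in WT mice and 156, 126 and 128 CPM in Ube3a m-/p+ mice and a log2 fold change of -0.40 (edgeR adjusted p = 0.0486). Neither gene was called after GC and length were corrected, with log2 fold changes of 0.05 and -0.23 (edgeR adjusted p = 0.865 and 0.114). An unadjusted p below 0.05 was reached by 17 with higher and 9 with lower values (35.6% of the 73, against 24.6% of all genes), and 10 and 11 did not overlap (28.8%, against 25.0%). The median log2 fold change was -0.01, from 0.08 over 25 genes of endocytosis to -0.03 over 11 calcium sensors. As with the members, the log2 fold change followed GC content (Spearman's rho 0.811 over the 73 genes), and after the correction rho was 0.146.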

How the data were processed

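Hippocampal RNA of 6 male mice was sequenced, with 1 library per mouse and 3 mice per genotype. The authors deposited counts, whole numbers of reads per gene symbol without normalization; per the labels' processing notes STAR 2.7.4a and HTSeq were used with the build mm10, and the annotation and strand setting are not given in the sources used here. Reads on no gene made up 54.1% to 55.1% of the reads listed and stayed out of all totals. CPM were computed on the total gene counts of a library. In R 4.3.3, genes kept by filterByExpr were scaled by TMM and tested by the quasi-likelihood test of edgeR 4.0.16 (robust dispersion, genotype as the only factor, two-sided). Alternatives were DESeq2 1.42.0, other scaling and filters, the replicate number as a block, leaving out each mouse, and a correction by natural splines (5 degrees of freedom) on GC content and log2 length of the longest coding transcript in GENCODE M21 (GRCm38, the assembly of mm10). Genes without a transcript were left uncorrected. Depth of 7293272 to 11314409 counts limits the precision of low members such as *Cplx3*. The steps were run on simulated counts with planted changes, a smaller spread between mice than in these data and no trend with GC content. How the steps act under such a trend was not tested. Every member is named; genes of the wider list are named where called, *Ube3a* as the check of the labels, and markers are given by list, except the neuronal ones. The members and lists were chosen with earlier results of these data known. P-values measure the spread between these mice.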

Additional observations from a re-analysis of the deposited data

How the results depend on the processing

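The count of members called (2) was 9 with DESeq2 (967 genes in all), 8 without a filter on low counts (1176), 12 at an unadjusted p below 0.05 with the same fold threshold (2832), 1 after correcting for GC and length (101), 0 with the replicate block (0 genes in all) and 0 with both (37). Leaving out 1 mouse gave 0 to 14 members and 0 to 2582 genes. Members at an unadjusted p below 0.05 (19) numbered 12 with the replicate block, 8 with the correction, 4 with both and 9 to 23 without 1 mouse (edgeR). The share of all genes at this p is not given for the replicate block or without a mouse numbered 1. Whether those counts are particular to the members was therefore not tested. Members without overlap (17) numbered 5 after the correction and 18 to 31 with 1 mouse left out. Fewer mice separate more easily, and the share of all genes with 1 mouse left out is not given. TMM scaling, added after the data were seen, left 17. With the same-numbered mice the correlations of deviations from the genotype means were -0.285, -0.177 and -0.311. These deviations hold the trends with GC content, which had opposite signs by genotype. The correlations therefore cannot decide whether the numbers pair the mice, and the replicate block was kept as an alternative fit only.

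Direction was kept by 28 of the 48 members in all of the 15 alternative fits that tested them. *Cplx3* was not tested with the filter of 10 counts in every library, and the share of all genes is not given. Turned log2 fold changes after the correction, without and with the replicate block, were 0.0273 and 0.027 for *Napb*, -0.0043 and -0.0029 for *Syt7*, -0.0869 and -0.0881 for *Rab3a*, -0.178 and -0.183 for *Syn1*, 0.164 and 0.158 for *Synpr*, -0.0461 and -0.0541 for *Syngr3*, 0.0204 and 0.0181 for *Sv2b*, 0.0054 and 0.0076 for *Slc17a8*, -0.024 and -0.025 for *Dnm1*, 0.0168 and 0.0168 for *Synj1*, and 0.0992 and 0.0967 for *Sh3gl2*. It was 0.0227 for *Slc17a6* with the correction alone, and -0.0033 for *Syn1* with total counts only. With 1 mouse left out, log2 fold changes that turned ran from -0.1548 to 0.0317 for *Vamp1*, -0.0596 to 0.0013 for *Vamp2*, -0.0185 to 0.0481 for *Syt11*, -0.0538 to 0.0613 for *Rph3a*, -0.02 to 0.078 for *Syn1*, -0.0601 to 0.0159 for *Syn2*, -0.1589 to 0.0061 for *Syn3*, -0.0246 to 0.5912 for *Sv2c*, -0.3276 to 0.0718 for *Slc17a8* and -0.0251 to 0.1001 for *Amph*; differences of ratios ran from -0.0387 to 0.0796 for *Syn1* to *Syn2* and -0.0557 to 0.1688 for *Vamp2* to *Vamp1*. The differences of ratios turned to -0.132 for *Syn1* to *Syn2*, -0.0407 for *Rab3a* to *Rab3c* and -0.004 for *Cplx1* to *Cplx2* after the correction. The causes were not tested.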
